A study of Mus musculus with 11 samples.

Results

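The cells described here are the mural cells of the mouse lung, chosen from droplet-based 3′ single-cell RNA sequencing of whole dissociated lung by a rule on a few marker genes. A barcode was taken when it held 1000 to 30000 UMIs (unique molecular identifiers, each counting 1 captured RNA molecule), at most 14% mitochondrial UMIs, no Ptprc UMI and at most 1 UMI of Cldn5 and Cdh5 together. It also had to meet a pericyte criterion, 2 or more UMIs of Cox4i2, Higd1b and Notch3 together, or a Myh11 criterion, 2 or more UMIs of Myh11. Of 69267 cells that passed the depth and mitochondrial filter, out of 81983 barcodes, 374 were chosen. Of these, 86 met the pericyte criterion only, 141 met the Myh11 criterion only and 147 met both. Because these 7 genes chose the cells, their levels in the classes are descriptions without a test.

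The 11 libraries came from 4 genotypes of lung. There was 1 library of wild type (+/+) mice (WT), 3 of p21 heterozygotes (+/-) (p21Het), 5 of p21 mTert (+/mTert) mice (p21mTert) and 2 of p21 mTertCD (+/mTertCD) mice (p21mTertCD), where p21 is the cell cycle inhibitor encoded by Cdkn1a and mTert is mouse telomerase reverse transcriptase. All libraries are titled as 18 months of age. The age field gives 19 months for p21Het replicate 1 and 20 months for p21mTert replicate 1. The labels do not spell out CD, do not say which tissues carry the allele's product, and do not say whether a library held 1 animal or several. The p-values below therefore measure the spread between these libraries.

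Mural cells wrap the endothelial tubes of blood vessels. Pericytes lie within the basement membrane of capillaries, receive endothelial PDGF-B through the receptor Pdgfrb, and signal back through factors such as Angpt1. Smooth muscle cells surround arteries, veins and airways and contract through smooth muscle myosin (Myh11) and α-actin (Acta2), with transcription driven by serum response factor at CArG boxes. Notch3 is the Notch receptor of arterial smooth muscle and pericytes, Cox4i2 is a hypoxia-linked isoform of a cytochrome c oxidase subunit enriched in lung pericytes, and Higd1b is a mitochondrial protein gene used to mark lung pericytes. The series title speaks of capillary loss, which makes the number of pericytes per endothelial cell the comparison closest to its question.

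Libraries held 5686 to 10525 barcodes, against the 6000 cells aimed at in the labels, and 4721 to 8525 of these passed the filter. Totals were 42038434 to 85988955 UMIs per library. Median mitochondrial shares were 6.30% to 6.58% in WT replicate 1, p21Het replicate 1 and p21mTert replicate 1, the 3 libraries whose titles carry no replicate number, and 2.82% to 4.28% in the other 8 libraries. No mural barcode was shared between libraries, and any 2 libraries shared 4 to 20 barcodes of any kind. Doublet scoring marked 68 of the 374 mural cells (18.2%), against 4.55% to 8.42% of all cells per library. The share per library was set beforehand from the number of barcodes. The scorer's own threshold marked 0% to 3.59% of the cells of a library. Mural cells made up 0.289% to 0.784% of the cells of a library.

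**Figure D1:**
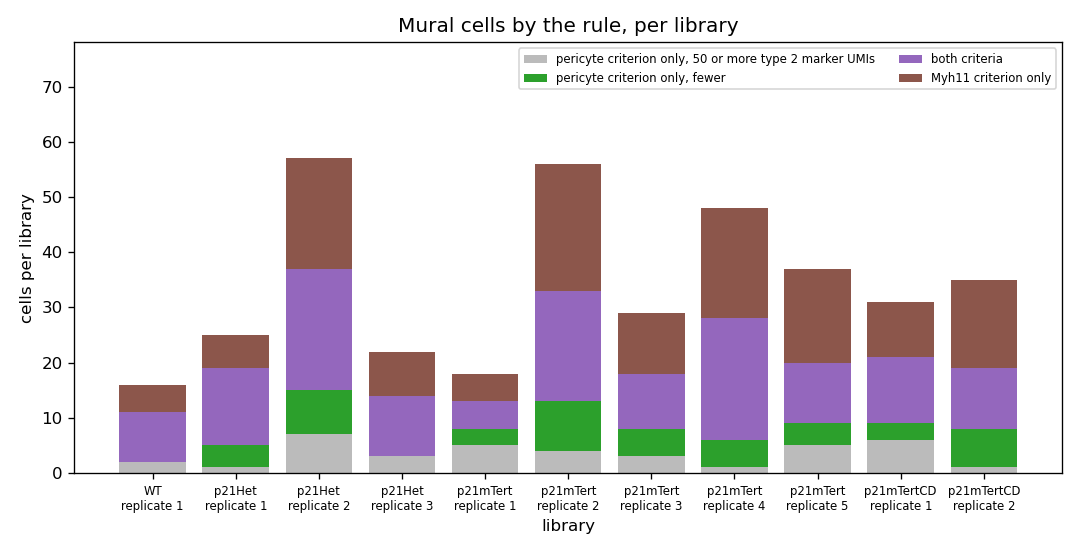
Stacked bars give the number of mural cells in each of the 11 libraries (y axis, cells), split into cells that met the pericyte criterion only with 50 or more type 2 marker UMIs (grey) or fewer (green), both criteria (purple), or the Myh11 criterion only (brown). Totals run from 16 in WT replicate 1 to 57 in p21Het replicate 2, and the green class is empty in WT replicate 1 and p21Het replicate 3.

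The data went against the name pericyte for 38 of the 86 cells that met the pericyte criterion only. Counts given over all 374 mural cells include them. These 38 cells held 176 to 1312 UMIs of 6 genes of alveolar type 2 cells, the surfactant-making epithelium: Slc34a2, Lamp3, Napsa, Chil1, Cxcl15 and Sftpd. The other 48 cells held at most 19. This list of 6 was chosen after the values were seen, and the division at 50 UMIs falls in the gap. Sftpc, the surfactant protein C gene, stood at 155370 counts per 1000000 UMIs (CPM, the summed UMIs of the gene over all UMIs of the cells) in the 38 cells and at 358 CPM in the 48. None of the 38 held a UMI of Pdgfrb, Gucy1a1 or Gucy1b1, the first being the PDGF-B receptor and the others the subunits of the nitric oxide receptor. Acta2 and Higd1b were also at 0 UMIs there. The count of 0 Pdgfrb UMIs in 38 cells of median depth 24467 UMIs contrasts with 37 of 48 cells with a Pdgfrb UMI at a median depth of 4318 UMIs.

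In 36 of the 38 cells, Cox4i2 was the only one of the 3 pericyte genes detected. Within the rule's limits on Ptprc, Cldn5 and Cdh5, 3011 cells held 50 or more UMIs of the 6 type 2 genes. Of these 3011, 2677 held no Cox4i2 UMI, 298 held 1 and 36 held 2 or more (1.20%). Their Cox4i2 level was 4.72 to 11.2 CPM per library, in all 11 libraries, against 0.453 CPM over the cells with Ptprc. The cells just inside and outside the threshold were many: 445 cells had 1 UMI of the 3 pericyte genes, 73 had 2 and 31 had 3. For Myh11, 106 cells had 1 UMI, 24 had 2 and 19 had 3.

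**Figure D2:**
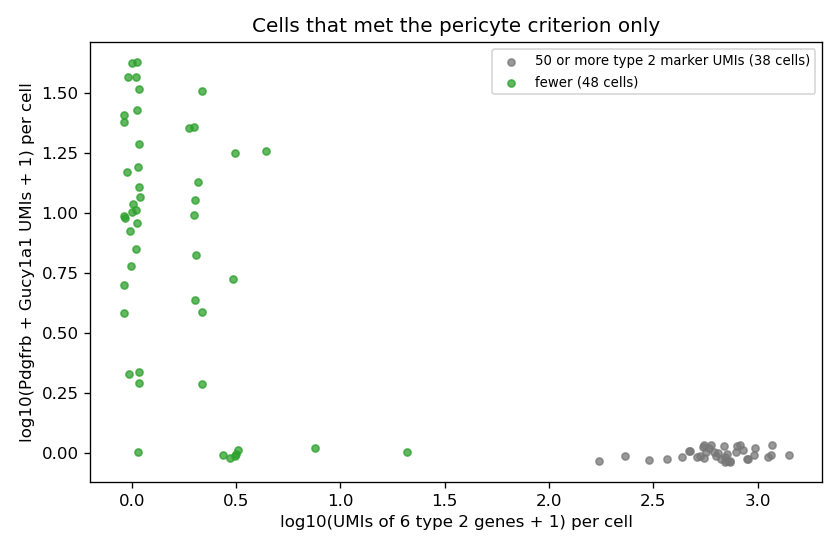
Each point is 1 of the 86 cells that met the pericyte criterion only, with log10(UMIs of 6 type 2 genes + 1) on the x axis and log10(Pdgfrb + Gucy1a1 UMIs + 1) on the y axis, jittered slightly on both. The 38 grey cells with 50 or more type 2 marker UMIs lie at 0 on the y axis, and the 48 green cells spread upward at 19 type 2 UMIs or fewer.

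Most of the remaining 48 cells carried pericyte genes outside the rule. Of 12 such markers, 34 cells held UMIs of at least 3, the median cell held 7 and 6 cells held none. Gucy1a1 stood at 951 CPM with UMIs in 36 cells, Pdgfrb at 528 CPM in 37 cells, and Postn, a matricellular protein gene, at 928 CPM in 29 cells. Agtr1a, the angiotensin II receptor, stood at 77.3 CPM in 17 cells and at 6.34 CPM in the cells that met both criteria. Trpc6, a cation channel gene, stood at 129 CPM in 20 cells and at 27.9 CPM in cells that met both criteria. Pde5a, the cGMP phosphodiesterase, stood at 601 CPM in 36 cells. The contractile genes were low: Acta2 was found in 12 cells at 284 CPM, Tagln in 18 at 441 CPM, and Cnn1 and Actc1 in none.

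Not all 48 were of 1 kind. All 3 rule genes were present in 19 cells, and each of those 19 held Pdgfrb. A single rule gene was present in 19 other cells, of which 9 held Pdgfrb. None of Pdgfrb, Gucy1a1 and Gucy1b1 was present in 8 cells, and 5 of these 8 held 100 or more immunoglobulin UMIs. UMIs of the fibroblast genes Pdgfra, Dcn or Dpt were present in 13 cells. The airway secretory gene Scgb1a1 passed 1000 UMIs in 2 cells. Igkc, the immunoglobulin kappa constant gene, stood at 71860 CPM over the 48 cells, with 13691 of its 27875 UMIs in 1 cell and 100 or more immunoglobulin UMIs in 6 cells, and doublet scoring marked 13 of the 48. Hereafter these are called the cells low in type 2 markers.

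At a common depth of 1000 UMIs per cell, 27 of these 48 cells kept a Pdgfrb UMI (56.2%, exact 95% interval 41.2% to 70.5%). The share was 22.4% (16.0% to 30.1%) of the 147 cells that met both criteria and 7.80% (3.96% to 13.5%) of the 141 that met the Myh11 criterion only. Without thinning these shares were 77.1%, 71.4% and 47.5%, at median depths of 4318, 10525 and 8369 UMIs. Cells with Ptprc gave 0.0536% after thinning and 0.396% before. Over all 86 cells that met the pericyte criterion only, 31.4% (21.8% to 42.3%) kept a Pdgfrb UMI after thinning. That interval overlaps the interval of the cells that met both criteria. The 48 cells were set apart after the values were seen. The intervals cover counting error only.

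Cells that met both criteria expressed the contractile apparatus at a high level. Acta2 stood at 19125 CPM with UMIs in 142 of 147 cells, Tagln, the actin-binding transgelin, at 13030 CPM in 145, and Myh11 at 4588 CPM. Tpm2, a tropomyosin, stood at 5689 CPM, Des, the muscle intermediate filament desmin, at 2290 CPM, and Mylk, the myosin light chain kinase, at 1627 CPM. Notch3 was present in 143 of the 147, and it was the only pericyte gene present in 76. Cox4i2 was present in 69 and Higd1b in 21. The pericyte criterion was thus met in this class mostly through Notch3.

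The cells that met the Myh11 criterion only fell into a pair of expression patterns by Hhip, which encodes a hedgehog-binding membrane protein. Hhip UMIs were present in 46 of the 141 cells, and in 1 of the 147 cells that met both criteria. Doublet scoring marked 14 of the 46 (30.4%) and 19 of the 95 Myh11-only cells without Hhip (20%). Thinned to 1000 UMIs, 40 of the 141 cells and 0 of the 147 kept a Hhip UMI. Hhip stood at 5596 CPM in the 46 cells, and it was the gene used to divide them, chosen after the values were seen. These 46 cells had Acta2 at 4940 CPM, against 17417 CPM in the 95 Myh11-only cells without Hhip. Tagln stood at 6399 against 12448 CPM, while Mylk was at 1630 against 1307 CPM and Pdlim3, a Z-disc protein gene, at 531 against 286 CPM.

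Other genes, also named after the values were seen, followed the same division. The growth factor binding protein gene Igfbp3 stood at 1137 CPM in Hhip cells and 7.79 CPM in the others. Tgfbi, an extracellular matrix protein gene, stood at 376 against 4.45 CPM, and Dpt, which encodes dermatopontin, at 549 against 16.7 CPM. The ligand genes Wnt5a and Igf1 stood at 203 against 3.34 CPM and at 248 against 3.34 CPM, and Scx, a tendon and ligament transcription factor, at 140 CPM against 0 UMIs. In the other direction, Npy1r, a neuropeptide Y receptor, was at 258 CPM in cells without Hhip and at 0 UMIs in Hhip cells. Heyl, a Notch target gene, stood at 102 CPM without Hhip and was absent from all 46 Hhip cells. Prss23 stood at 362 against 2.98 CPM and Ctgf at 2276 against 221 CPM.

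**Figure D3:**
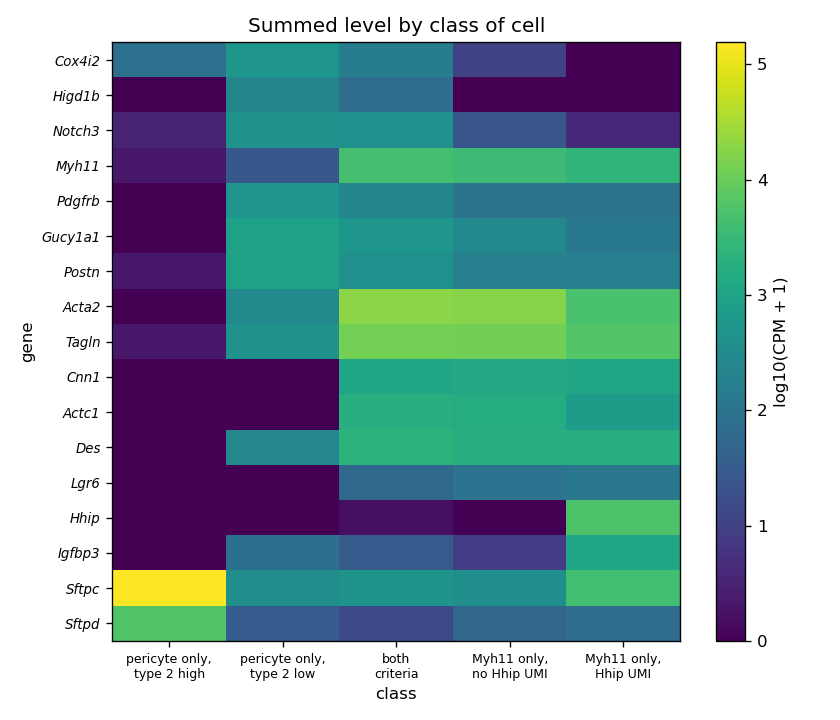
The colour gives log10(CPM + 1) of 17 genes (rows) over the summed UMIs of 5 classes of cell (columns). Acta2, Tagln, Cnn1, Actc1 and Des are high in the 3 Myh11 classes, Pdgfrb and Gucy1a1 are present in every class but the type 2 high one, and Hhip and Igfbp3 are highest in the Myh11-only cells with a Hhip UMI.

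Among genes of vascular tone, a few chosen after their values were seen are given here without a test between classes. The endothelin receptors Ednra and Ednrb stood at 257 and 364 CPM in Hhip cells, at 64.5 and 121 CPM in Myh11-only cells without Hhip, and at 150 and 123 CPM in cells that met both criteria. Kcnj8 and Abcc9, the subunits of the vascular ATP-sensitive potassium channel, stood at 269 and 301 CPM in Hhip cells and at 24.1 and 69.2 CPM in cells that met both criteria. Ppp1r14a, an inhibitor of myosin phosphatase, stood at 1582 CPM in cells that met both criteria and 275 CPM in Hhip cells. Rgs5, often used to mark pericytes, was found in 1 of the 48 cells low in type 2 markers. It stood at 179 CPM in Myh11-only cells without Hhip, with UMIs in 17 of the 95 and 70 of its 161 UMIs in 1 cell, and at 17.9 CPM in Hhip cells and 22.2 CPM in cells that met both criteria.

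Epas1, a hypoxia-inducible factor subunit, stood at 524 CPM in cells that met both criteria and 180 CPM in Myh11-only cells without Hhip. Ndufa4l2, a hypoxia-induced mitochondrial gene, stood at 127 against 13.3 CPM in the same classes, and at 219 CPM in the cells low in type 2 markers. The Notch targets Heyl and Hey2 stood at 174 and 70.4 CPM in cells that met both criteria. Elastin, Eln, stood at 1266 CPM in cells that met both criteria, 867 CPM in Myh11-only cells without Hhip, 307 CPM in Hhip cells and 405 CPM in the cells low in type 2 markers. Of 18 cell cycle genes, none reached the expression filter of the model in Myh11 cells, and Mki67 was present in 2 of 374 mural cells.

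Actc1, the cardiac α-actin gene, was present in 123 of the 147 cells that met both criteria at 1873 CPM, in 64 of 95 Myh11-only cells without Hhip at 1633 CPM, and in 12 of 46 Hhip cells at 710 CPM. It was absent from all 86 cells that met the pericyte criterion only. Myl9, a regulatory myosin light chain, ran alongside it, at 3865, 3714 and 1286 CPM in the same 3 classes and at 108 CPM in the cells low in type 2 markers. Their promoters are printed because both hold a CArG box, the binding sequence of serum response factor, whose consensus is its own reverse complement, so that a match on 1 strand is a match on the other. The 250 bases before each start are from RefSeq on GRCm38.p6, 5′ to 3′, with the box in capitals. The Actc1 stretch is chr2:114052876-114053125 on the minus strand, and the Myl9 stretch is chr2:156775214-156775463 on the plus strand.
Actc1: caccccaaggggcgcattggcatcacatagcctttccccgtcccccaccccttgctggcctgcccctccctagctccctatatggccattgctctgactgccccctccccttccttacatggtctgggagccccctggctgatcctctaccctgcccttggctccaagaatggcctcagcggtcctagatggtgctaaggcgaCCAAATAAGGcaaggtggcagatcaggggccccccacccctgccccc
Myl9: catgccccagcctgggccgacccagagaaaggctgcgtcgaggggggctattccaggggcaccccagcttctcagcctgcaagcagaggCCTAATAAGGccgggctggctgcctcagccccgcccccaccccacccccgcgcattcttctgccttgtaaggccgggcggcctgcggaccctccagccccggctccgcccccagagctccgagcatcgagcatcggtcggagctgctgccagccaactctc

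The box ran from base 47 to base 38 before the start in Actc1 and from base 161 to base 152 in Myl9. Of 32851 RefSeq windows of this length, 482 held a CArG box (1.47%). Of 20 contractile genes, 18 matched the table by symbol with 21 windows, and 3 windows held a box, those of Myl9, Myl6 and Vcl. Actc1 is not on that list. A match is a description of these letters only.

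The study's comparisons were made on the share of cells first. Cells that met the pericyte criterion only were 0.0804%, 0.176% and 0.0512% of the cells in p21Het, replicates in order. In p21mTert they were 0.129%, 0.173%, 0.127%, 0.0958% and 0.191%, and in p21mTertCD 0.137% and 0.143%. The WT library had 2 such cells of 5464 (0.0366%, exact 95% interval 0.00443% to 0.132%). The groups overlapped, with means of 0.103% ± 0.0653 (SD, n = 3), 0.143% ± 0.0383 (n = 5) and 0.140% ± 0.00401 (n = 2). The differences had exact 2-sided permutation p-values of 0.339 for p21mTert against p21Het, 0.952 for p21mTert against p21mTertCD and 0.5 for p21mTertCD against p21Het. With 1 library left out, the p21mTert minus p21Het difference of 0.0404 points ran from 0.0147 (without p21Het replicate 3) to 0.0771 (without p21Het replicate 2), and that of p21mTertCD minus p21Het from 0.0119 to 0.0743 for the same libraries. The smallest p these designs allow is 0.0179, 0.0476 and 0.1.

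Myh11-only cells were 0.0965%, 0.235% and 0.136% of the cells in p21Het, and 0.0804%, 0.306%, 0.174%, 0.319% and 0.360% in p21mTert. They were 0.152% and 0.286% in p21mTertCD and 0.0915% (5 of 5464, exact 95% interval 0.0297% to 0.213%) in WT. The 2 lowest values of the replicated groups came from p21mTert replicate 1 and p21Het replicate 1, whose titles carry no replicate number. The exact permutation p-values were 0.25, 0.667 and 0.4 in the same order. With doublet-marked cells left out, 0 of the 8 Myh11-only cells of p21Het replicate 3 and 11 of the 20 of replicate 2 were left, and the p21mTert minus p21Het difference went from 0.0921 to 0.147 percentage points (exact permutation p 0.125). Among the libraries with a replicate number in the title, the p21mTert minus p21Het difference was 0.104 percentage points, and the exact permutation p was 0.267. In a dissociated tissue, fewer cells of a type in the lung and fewer released or captured cells cannot be told apart.

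Endothelial cells were taken as those with no Ptprc UMI and 2 or more UMIs of Cldn5 and Cdh5. Per 100 of them, there were 0.891, 1.39 and 1.06 cells that met the pericyte criterion only in p21Het. The ratio was 1.79, 1.38, 0.982, 0.652 and 2.09 in p21mTert, 2.69 and 1.63 in p21mTertCD and 0.514 in WT. Both p21mTertCD values lay above all 3 p21Het values, and the p21mTert values spanned from below to above p21Het. Of the cells counted, 6 of 9 and 1 of 8 were high in type 2 markers in p21mTertCD replicates 1 and 2. In p21Het these were 1 of 5, 7 of 15 and 3 of 3. In p21mTertCD replicate 1, the 3 cells low in type 2 markers held 129 CPM of pericyte markers outside the rule. Their immune genes summed to 354787 CPM. The 2.69 of that library thus counts cells that met the criterion but held little other pericyte RNA. The p21mTertCD and p21Het libraries overlapped with cells thinned to 1000 UMIs (difference 0.169, exact permutation p 0.8), with 3 or more marker UMIs (0.497, p 0.5) with the cells of both criteria counted (1.16, p 0.5), with doublet-marked cells left out (0.723, p 0.3) and with no cell filter (1.45, p 0.4). With the cells of both criteria counted the p21mTert minus p21Het difference turned from 0.265 to -0.656. With 1 library left out that difference ran from 0.0864 (without p21mTert replicate 5) to 0.447 (without p21mTert replicate 4). The p21mTertCD minus p21Het difference of 1.05 ran from 0.519 to 1.58, without p21mTertCD replicate 1 and replicate 2 in turn, and p21mTert minus p21mTertCD from -0.254 to -1.32 for the same libraries. Group means were 1.11 ± 0.256 (SD, n = 3) in p21Het, 1.38 ± 0.583 (n = 5) in p21mTert and 2.16 ± 0.751 (n = 2) in p21mTertCD. The exact permutation p was 0.518 for p21mTert against p21Het, 0.238 for p21mTert against p21mTertCD and 0.1, the smallest possible, for p21mTertCD against p21Het. After Benjamini-Hochberg adjustment over the 9 share comparisons, no adjusted p was below 0.666, and all 9 permutation p-values were exact.

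Within the 288 cells that met the Myh11 criterion, Hhip cells were 5% to 31.6% per library in p21Het (mean 17.0% ± 13.5, SD, n = 3), 0% to 25% in p21mTert (13.0% ± 9.81, n = 5), 9.09% to 37.0% in p21mTertCD (23.1% ± 19.8, n = 2) and 14.3% in WT. The groups overlapped in this share. The 31.6% was p21Het replicate 3, with 6 Hhip cells of 19. All 6 were among its 8 Myh11-only cells, each of which doublet scoring marked. Cells that also met the pericyte criterion were 52.4% to 70% in p21Het (60.1% ± 9.01), 39.3% to 52.4% in p21mTert (47.2% ± 4.95), 40.7% to 54.5% in p21mTertCD (47.6% ± 9.76) and 64.3% in WT. The highest p21mTert library equalled the lowest p21Het library, and the difference was not tested. This class depends on depth. With cells thinned to 1000 UMIs, p21Het kept 1, 0 and 1 cells of both criteria, beside 18, 36 and 16 Myh11-only cells. In p21mTert there were 0, 2, 0, 1 and 4, beside 9, 37, 14, 30 and 20. Notch3 was present in most cells of this class, so this share and the Notch3 level below are not separate results.

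Leaving out the 38 cells high in type 2 markers, there were 0 to 0.743 cells low in type 2 markers per 100 endothelial cells in p21Het, 0.543 to 0.956 in p21mTert and 0.898 to 1.43 in p21mTertCD. The means were 0.486 ± 0.421 (SD, n = 3), 0.743 ± 0.189 (n = 5) and 1.16 ± 0.375 (n = 2). WT replicate 1 and p21Het replicate 3 held no such cell. A count of 0 allows up to 0.0549% of all cells in WT replicate 1 and 0.0512% in p21Het replicate 3. This limit of 3 counts covers counting error only, and it is a share of all cells, not of endothelial cells. Per 100 endothelial cells the same 3 counts weigh more, and that limit is not given here. WT replicate 1 had 389 endothelial cells, and p21Het replicate 3 had the fewest, 284. The 0.898 came from 3 cells of p21mTertCD replicate 1. Their 12 pericyte markers outside the rule summed to 129 CPM, the lowest of 9 libraries with such cells, where the median was 6839.5 CPM. Their immune genes summed to 354787 CPM, the highest.

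**Figure D4:**
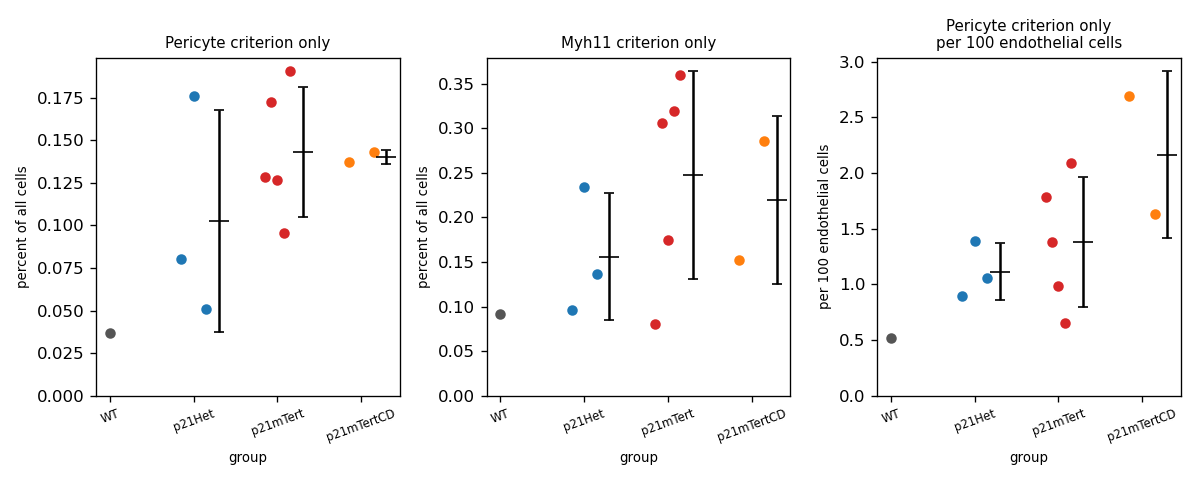
Points are libraries, with cells of the pericyte criterion only (left) and the Myh11 criterion only (middle) as percent of all cells, and the former per 100 endothelial cells (right), by group on the x axis; bars give the mean and SD. The replicated groups overlap in the left and middle panels, and both p21mTertCD points lie above the 3 p21Het points in the right panel.

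Expression across genotypes was compared over all 288 cells that met the Myh11 criterion, which include the 147 that met both, summed per library and fitted in edgeR. This choice of cells was made after the data were seen, because it gives 10 to 43 cells and 105735 to 442145 UMIs in each of the 10 libraries fitted. No gene of 4518 tested passed an adjusted p of 0.05 in any contrast (0% called). Unadjusted p-values under 0.05 numbered 224 for p21mTert against p21Het, 198 for p21mTert against p21mTertCD and 182 for p21mTertCD against p21Het. None of these counts exceeds what a 0.05 cut over 4518 genes gives by chance. Some genes below are described by library values that do not overlap between groups. The share of all tested genes that do so is not given here, so such a separation does not set a gene apart. DESeq2 also called 0 genes in each. Sums of markers of other cell types varied within groups: erythroid genes stood at 17.8 to 5380 CPM in p21Het, 118 to 774 CPM in p21mTert and 95.8 to 7581 CPM in p21mTertCD. Immune genes stood at 339 to 2095, 246 to 1153 and 957 to 3239 CPM in the same order, and alveolar type 2 genes at 292 to 2238, 441 to 984 and 665 to 6815 CPM. Airway secretory and ciliated genes ran widest, at 688 to 17466 CPM in p21Het, 1139 to 62676 CPM in p21mTert and 679 to 862 CPM in p21mTertCD. The highest value was p21mTert replicate 1, where Scgb1a1 alone stood at 62259 CPM. Mesothelial genes ran from 0 to 1561 CPM over all libraries. Their part in the results below was not tested.

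Cdkn1a, the gene at the locus named p21, stood at 111, 233 and 200 CPM in the Myh11 cells of p21Het (25, 78 and 46 UMIs). It stood at 9.46, 197, 177, 167 and 61.5 CPM in p21mTert (1, 83, 33, 74 and 17 UMIs) and at 112 and 50.0 CPM in p21mTertCD (25 and 12 UMIs). The WT library had 87.2 CPM (11 UMIs). The groups overlapped, with log2 fold changes of -0.46 (SE 0.48), 0.74 (SE 0.63) and -1.19 (SE 0.67) for p21mTert over p21Het, p21mTert over p21mTertCD and p21mTertCD over p21Het. No edgeR adjusted p was below 0.984. Leaving out 1 library moved the first from -0.74 (without p21mTert replicate 2) to -0.13 (without p21Het replicate 2). It moved the second from 0.24 to 1.47 and the last from -0.70 to -1.93, without p21mTertCD replicate 2 and replicate 1 in turn. Over all 374 cells of the rule Cdkn1a stood at 138 CPM, against 549 CPM in the endothelial cells. The 38 cells high in type 2 markers are included there, with 899551 of the 4097628 UMIs, and in the Tert counts that follow. Tert gave 3 UMIs in 188 mural cells of p21mTert, 1 in 66 of p21mTertCD, 1 in 16 of WT and 0 in 104 of p21Het. At this depth no difference in Tert was detectable, and the labels are not checked by it.

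Acta2 in these cells stood at 18016, 15608 and 20957 CPM in p21Het, replicates in order. It was 16551, 18472, 15393, 18103 and 16578 CPM in p21mTert, 13617 and 11224 CPM in p21mTertCD, and 21027 CPM in WT. Both p21mTertCD libraries were below all the others, and p21Het and p21mTert overlapped. The log2 fold change of p21mTertCD over p21Het was -0.54 (SE 0.19), and edgeR's adjusted p was 1.00. Tagln stood at 13180, 11104 and 13815 CPM in p21Het, 10072, 13460, 10824, 13170 and 11347 CPM in p21mTert, and 9851 and 9746 CPM in p21mTertCD. Its p21mTertCD values were again the lowest, with a log2 fold change over p21Het of -0.36 (SE 0.19).

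Hhip, whose cells had lower Acta2, had a higher mean in the same group, with 872 and 2094 CPM in p21mTertCD, 26.7, 424 and 714 CPM in p21Het, and 0, 296, 672, 305 and 1534 CPM in p21mTert. The p21mTert and p21mTertCD values overlapped. In the cells that met both criteria, of which 1 of 147 held Hhip, Acta2 stood at 15137 and 15041 CPM in p21mTertCD. It stood there at 19061, 19534 and 22564 CPM in p21Het and at 22975, 19150, 18539, 16898 and 21625 CPM in p21mTert. In that class the p21mTertCD values of Acta2 lay below those listed for p21Het and p21mTert, given as a description. The part of Hhip cells in the Acta2 levels was not tested.

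Of the 20 genes of the contractile apparatus, all 20 were tested and none passed the test in any contrast. The median log2 fold change of the 20 was -0.09 for p21mTert over p21Het, 0.13 for p21mTert over p21mTertCD and -0.26 for p21mTertCD over p21Het, where the medians over all tested genes were 0.00. Cnn1, the actin-binding calponin, had group means of 1260 ± 133 (SD, n = 3), 1230 ± 288 (n = 5) and 900 ± 119 (n = 2) CPM in p21Het, p21mTert and p21mTertCD. Des had means of 2311 ± 465, 2088 ± 531 and 1572 ± 37.3 CPM in the same order. Mylk had means of 1516 ± 120, 1409 ± 191 and 1790 ± 164 CPM, its higher values falling in p21mTertCD.

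Notch3 stood at 334, 239 and 305 CPM in the Myh11 cells of p21Het and at 199, 189, 193, 226 and 206 CPM in p21mTert. The 5 p21mTert values were all below the 3 p21Het values, without the share of all tested genes that separate in this way. The log2 fold change was -0.50 (SE 0.16), and edgeR's adjusted p was 0.928. In p21mTertCD it stood at 265 and 196 CPM, and in WT at 357 CPM. Notch3 is one of the rule's genes, but it did not enter the Myh11 criterion that chose these 288 cells. Of 14 other Notch pathway genes, 7 were tested and none passed, with 6 of 7 fitted below 0 for p21mTert over p21Het and a median of -0.37. The share of all tested genes fitted below 0 is not given here, so this count does not set the list apart. The Notch targets Hes1 and Heyl had log2 fold changes of -0.49 (SE 0.31) and -0.39 (SE 0.31) for p21mTert over p21Het.

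**Figure D5:**
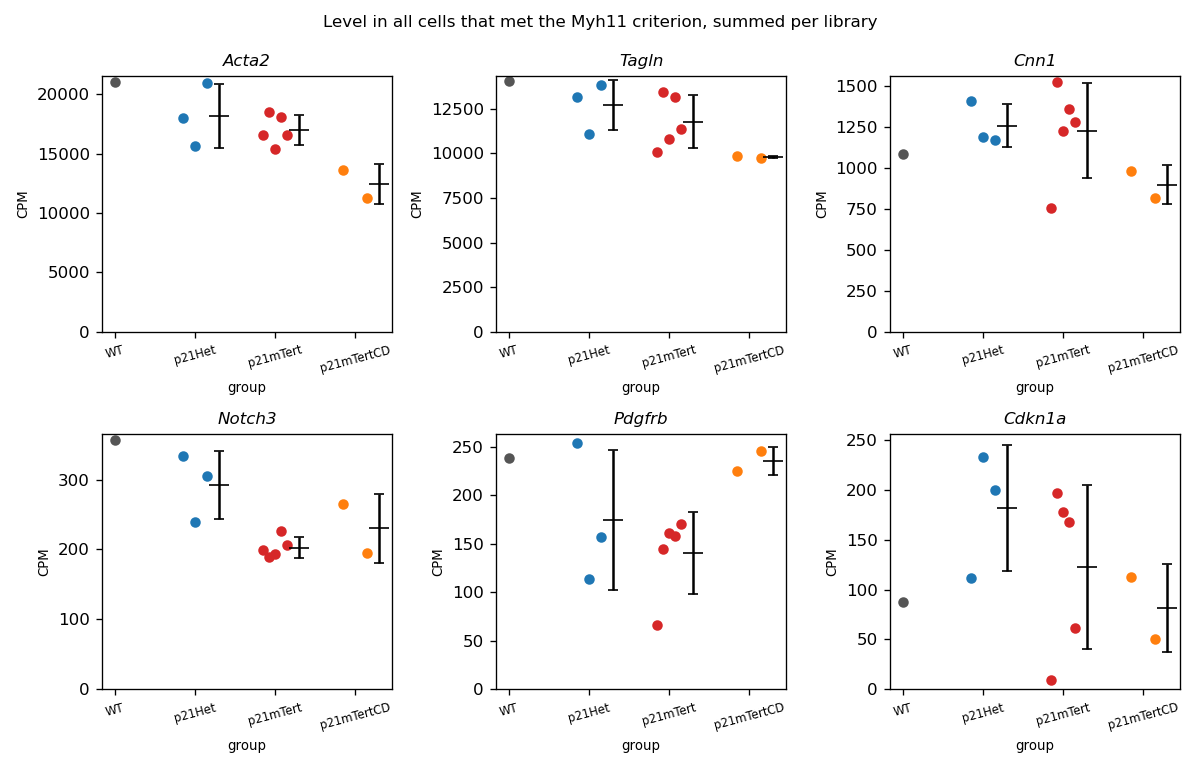
Points give the CPM of 6 genes in all cells that met the Myh11 criterion, 1 point per library, by group on the x axis, with bars for the mean and SD of replicated groups. Acta2 and Tagln are lowest in the 2 p21mTertCD libraries, the 5 p21mTert points of Notch3 lie below the 3 p21Het points, and no gene passed the test.

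Among receptors and signals between mural and endothelial cells, 15 of 28 genes were tested and none passed in any contrast. Pdgfrb stood at 254, 114 and 157 CPM in p21Het, 66.2, 144, 161, 158 and 170 CPM in p21mTert, and 225 and 246 CPM in p21mTertCD. The p21mTertCD values lay above all 5 p21mTert values, and the p21Het values overlapped both groups. The log2 fold change of p21mTert over p21mTertCD was -0.69 (SE 0.29), and edgeR's adjusted p was 1.00. Angpt1, the ligand of the endothelial receptor Tek, had means of 77.9 ± 14.4 (SD, n = 3), 88.7 ± 50.5 (n = 5) and 101 ± 48.2 (n = 2) CPM in p21Het, p21mTert and p21mTertCD. Of 32 genes of vascular tone, 25 were tested and none passed, with a median log2 fold change of 0.03 for p21mTert over p21Het.

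Matrix, hypoxia and senescence lists gave no called gene. Of 20 basement membrane genes 17 were tested, of 22 genes of fibrillar and elastic matrix 21, of 15 genes of hypoxia and mitochondrial isoforms 9, and of 23 senescence-associated factors 10. Their median log2 fold changes for p21mTert over p21Het were -0.06, -0.08, -0.14 and -0.26. Eln had means of 1050 ± 219 (SD, n = 3) in p21Het, 951 ± 157 (n = 5) in p21mTert and 1106 ± 717 (n = 2) CPM in p21mTertCD. Of 20 p53 target genes 10 were tested, with a median of -0.09. Among 21 immediate early and stress genes, all 21 were tested and none passed. Hspa1a, a heat shock protein gene, stood at 293, 2051, 435, 1271 and 1570 CPM in p21mTert, 410, 699 and 461 CPM in p21Het, and 207 and 895 CPM in p21mTertCD. The p21mTert libraries thus spread from below to above the p21Het libraries.

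In the Myh11-only cells, as a separate side, edgeR called 8 of 3191 genes lower in p21mTert than in p21Het replicate 2 (0.251% called) and 7 lower in p21mTertCD than in that library (0.219% called), and none higher. Between p21mTert and p21mTertCD it called 0 (0%), with 204 genes at an unadjusted p under 0.05, and DESeq2 called 5. Only p21Het replicate 2 had the 10 cells needed, so p21Het was 1 library there, assumed to vary like the other groups, and these calls compare with that library rather than with the genotype. The 8 genes were Scgb1a1, Scgb3a2, Retnla, Il4i1, Fabp5, Serpinb1a, Serpinb6a and Itih4, of which the first and second are secretoglobins of airway secretory cells. The log2 fold changes for p21mTert over p21Het replicate 2 ran from -9.63 for Retnla to -1.87 for Itih4. The fit held p21mTert replicates 2 to 5, as replicate 1 had 5 such cells. In p21mTert replicate 1, Scgb1a1, Il4i1, Fabp5 and Serpinb1a stood at 95075, 566, 957 and 1726 CPM. These were above p21Het replicate 2, at 44055, 372, 459 and 1567 CPM, and the rest of the 8 genes were below it. Scgb1a1 stood at 980 and 614 CPM in p21Het replicates 1 and 3, also not fitted.

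Single cells held much of these genes' UMIs in p21Het replicate 2. Of 5566 Scgb1a1 UMIs in the 20 cells of p21Het replicate 2, 5470 came from 1 cell of 8684 UMIs with 2 Myh11 UMIs, which also held 217 of 218 Retnla UMIs and 112 of 114 Scgb3a2 UMIs. Another cell, of 10204 UMIs with 4 Myh11 UMIs and marked as a doublet, held all 47 Il4i1 and all 198 Serpinb1a UMIs, 54 of 58 of Fabp5 and 110 of 131 of Serpinb6a. Yet another cell, of 13778 UMIs, held 46 of 85 Itih4 UMIs. Among the libraries fitted, leaving out cells of 1000 or more Scgb1a1 UMIs removed only the cell of 8684 UMIs. It took p21Het replicate 2 from 20 to 19 cells. A fit without either of the other cells alone was not made. Without cells of 1000 or more Scgb1a1 UMIs, 4, 0 and 1 genes were called in the 3 contrasts, and with the cells that met both criteria added none was. Of the 20 contractile genes, all were tested here, with 17 fitted above 0 for p21mTert over p21Het replicate 2. Their median log2 fold change was 0.41, opposite in sign to the median over all Myh11 cells. The median over all genes of this fit is not given here, so the contrast in sign has no reference. Summed type 2 genes stood at 1868 CPM in p21Het replicate 2, at 450 to 691 CPM in the p21mTert libraries fitted, and at 1131 and 12845 CPM in p21mTertCD. Their part in the result was not tested.

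For cells that met the pericyte criterion only, the planned test with 10 cells per library could not be fitted, since p21mTert replicate 2 and p21Het replicate 2 alone reached 10. With at least 5 cells, which left out p21Het replicate 3, edgeR called 0 of 2304 genes in every contrast (0% called), with 62, 61 and 29 genes at an unadjusted p under 0.05. DESeq2 called 0, 2 and 0. Without the 38 cells high in type 2 markers, 19, 2 and 0 genes were called, from p21mTert replicates 2 to 4, p21Het replicate 2 alone and p21mTertCD replicate 2 alone, so that p21Het and p21mTertCD were 1 library each. In the sums that include the 38 cells, the list of 10 alveolar type 2 genes stood at 60315 to 223609 CPM per library fitted. The fit without these cells also held fewer libraries, so the part of the list in the result was not tested. Of the 12 pericyte markers outside the rule, 10 were tested and none passed, with a median log2 fold change of 0.29 for p21mTert over p21Het. All 10 were fitted above 0 for p21mTert over p21mTertCD (median 1.51) and below 0 for p21mTertCD over p21Het (median -1.38). The medians over all 2304 genes were 0.03, -0.01 and 0.01 in the 3 contrasts. The contrasts share libraries. In p21mTertCD replicate 1, 6 of the 9 cells were high in type 2 markers. The 12 pericyte markers outside the rule summed to 129 CPM in its other 3. In p21mTertCD replicate 2, 1 of 8 cells was high in type 2 markers. The part of this make-up in the fitted signs was not tested.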

How the data were processed

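Single-cell RNA was captured from whole dissociated lung with 10x 3′ chemistry and aligned to mm10 with Cell Ranger, per the submitters' processing notes. The deposited values are raw UMI counts of 31053 genes per barcode, with no later filter applied. The rule was applied to each of the 11 libraries, and doublets were scored with Scrublet in scanpy 1.11.5 (0.8% per 1000 barcodes) and kept. Shares were compared over libraries by exact 2-sided permutation tests. UMIs were summed per library and class and fitted in edgeR 4.0.16 (R 4.3.3, TMM, quasi-likelihood) over the 3 replicated groups, with a Benjamini-Hochberg adjusted p of 0.05 as threshold and DESeq2 1.42.0 as an alternative. The WT library entered no test. The models were tested on simulated data. Always named were Cdkn1a, Tert, the rule's genes and the lists' members; called genes were named by fold change, up to 10 per direction, at a mean of at least 50 CPM and with groups that did not overlap. The members and lists were chosen with earlier results of these data known.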

Additional observations from a re-analysis of the deposited data

Results flagged for a closer look

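Of 18 sets of 5 p21mTert library values examined, gene levels in all Myh11 cells and shares of cells, 2 had 1 library far from the other 4, where chance gives about 1 in 20. Mylk was lowest at 1078.17 CPM in p21mTert replicate 1, at a gap of 0.727 of the range. Pdgfrb was lowest at 66.2032 CPM in p21mTert replicate 1, at a gap of 0.754 of the range. That library had 10 such cells, the fewest of those fitted.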

How the results depend on the processing

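Libraries held 16 to 57 mural cells, and p21Het was 1 library in the Myh11-only fit. Of the share alternatives, 125 kept direction and side of the threshold and 13 turned direction, with none past the threshold. For p21mTert minus p21mTertCD, the pericyte share (difference 0.00284) became -0.136 without Ptprc cells in the denominator, -0.01 on the log2 scale (-0.00968) and -0.00307 without cells of 50 or more type 2 UMIs, and ran from -0.00909 to 0.0146 with 1 library left out. The Myh11-only share became -0.187 without Ptprc cells and ran from -0.0379 to 0.0955. For p21mTertCD minus p21Het that share became -0.0187 with cells thinned and ran from -0.00335 to 0.130. Per 100 endothelial cells, p21mTert minus p21Het became -0.247 with no cell filter, -0.656 with cells of both criteria counted and -0.0436 with a replicate block over the shared numbers 2 and 3, where the titled libraries without a block gave 0.0519, and p21mTert minus p21mTertCD became 0.0386 with cells thinned. The cause was not tested.

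Gene counts follow in the order p21mTert minus p21Het, p21mTert minus p21mTertCD, p21mTertCD minus p21Het. With no filter on low counts they were 72, 61 and 44 in Myh11-only cells, 62, 65 and 30 in the pericyte criterion, and 75, 65 and 47 in all Myh11 cells. In Myh11-only cells the first was 0 with cells of both criteria added, with 5 or with 20 cells required, 13 without doublets, 15 with 3 marker UMIs, 23 with only the 2 groups and 4 without Scgb1a1 cells. The second was 5 by DESeq2 and 6 with 3 marker UMIs. The last was 0 with both criteria added or 5 cells required, 20 with only the 2 groups and 1 without Scgb1a1 cells. With 1 library left out they ran 7 to 35, 0 to 8 and 4 to 13. In the pericyte criterion the first was 2 without doublets, 4 with 3 marker UMIs, 3 in libraries with a titled replicate number and 19 without type 2 cells. The second was 2 by DESeq2, without doublets and without type 2 cells, the last with 1 library each of p21Het and p21mTertCD. With 1 library left out they ran 0 to 3, 0 to 6 and 0 to 2. In all Myh11 cells the first was 1 without doublets or with 3 marker UMIs, and with 1 library left out they ran 0 to 1, 0 to 3 and 0 to 1.

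With the replicate number as a block, over the 8 libraries with a titled number, all Myh11 cells gave 65, 75 and 78 calls on 1 residual degree of freedom, where the same libraries without the block gave 0 in each. Same-numbered libraries correlated at 0.07, -0.05, 0.03 and 0.07 in their deviations from the group means. Differently numbered libraries were not correlated as a reference, so these values do not decide whether the numbers pair libraries. The block could not be fitted for the other gene results.

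For p21mTert over p21Het in Myh11-only cells, Fabp5 turned to a log2 fold change of 0.0519 with both criteria added, and Scgb1a1 to 1.00 there, 0.65 with 3 marker UMIs, 0.32 with 5 cells required and 0.51 without Scgb1a1 cells. Cdkn1a in the pericyte criterion turned to -0.14 with both criteria added and -0.0761 with a term for a titled replicate number, and ran from -0.12 to 1.02 with 1 library left out. For p21mTert over p21mTertCD it ran from -0.18 to 1.83. For p21mTertCD over p21Het it turned to -0.88 with both criteria added, -0.86 with that term, -0.0409 with no filter and -0.0750 in titled libraries, and ran from -1.10 to 0.63.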
